A study of Rattus norvegicus with 8 samples.

Results

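The cell-surface peptidases described here are 8 genes, Xpnpep2, Anpep, Dpp4, Ace, Mme, Enpep, Cpm and Ece1, out of 23487 genes in the deposited table. They were selected by symbol, with the fold changes of CNT-7 over CNT-T in these same rats already known, so each member's difference is given as a description and carries no p-value. RNA was sequenced from peritoneal macrophages that the authors sorted by flow cytometry (their macrophage gate was high for CD11b/c and dim for His48, which is meant to leave out other cell types) from Wistar rats, female and 8 weeks old, 15 days after an injection into the peritoneum. Of these rats, 4 received CNT-7, the needle-like carbon nanotube MWCNT-XNRI-7, which induces mesothelioma in rats, and 4 received CNT-T, a tangled carbon nanotube that does not. Each library came from 1 rat, and untreated rats were not analysed here, so a difference is between both particles and not from rest. In the labels the CNT-7 rats carry the numbers 3, 5, 10 and 11, and the numbers 1, 2, 12 and 13 belong to CNT-T. Values per rat follow this order throughout.

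Ectopeptidases are anchored in the plasma membrane with the active site facing outwards, and they cut small peptides at the cell surface. Most are zinc metallopeptidases, whereas Dpp4 is a serine peptidase. On myeloid cells they are known as differentiation antigens, among them CD13 (Anpep), CD26 (Dpp4) and CD10 (Mme), and they shorten vasoactive peptides, chemokines and opioid peptides. Anpep and Enpep remove residues from the amino end, Xpnpep2 and Dpp4 cut next to proline, Ace and Cpm work from the carboxyl end, and Mme and Ece1 cut inside the peptide.

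All 8 members were matched to a promoter window in RefSeq (GRCr8, 250 bases before to 50 bases after the annotated start). GRCr8 is not the assembly of the counts (Rnor_6.0), and the counts do not show which start the macrophages used. Windows of 4 members are printed because they span the range of the results. Xpnpep2 and Ace were at or near 0 with CNT-T and higher in every CNT-7 rat, Dpp4 had at most 25 counts in any rat, and the levels of Ece1 overlapped between the particles. Capitals mark matches, on either strand, to any of 6 motifs. The core bound by PU.1 and other ETS factors was searched as GAGGAA, and the AP-1 site as TGANTCA. The STAT site was searched as TTCNNNGAA, and the GC box as GGGCGG. The TATA box was searched as TATAAA, and the E-box as CACGTG. Adjacent matches to GGGCGG can overlap.
Xpnpep2, chrX:132168149-132168448, plus strand: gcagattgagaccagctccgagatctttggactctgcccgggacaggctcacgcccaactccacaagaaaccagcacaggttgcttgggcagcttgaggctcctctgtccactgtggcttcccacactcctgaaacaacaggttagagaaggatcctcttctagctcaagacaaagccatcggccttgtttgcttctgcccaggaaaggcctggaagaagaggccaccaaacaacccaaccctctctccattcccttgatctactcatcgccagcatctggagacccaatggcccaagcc
Ace, chr10:91409879-91410178, plus strand: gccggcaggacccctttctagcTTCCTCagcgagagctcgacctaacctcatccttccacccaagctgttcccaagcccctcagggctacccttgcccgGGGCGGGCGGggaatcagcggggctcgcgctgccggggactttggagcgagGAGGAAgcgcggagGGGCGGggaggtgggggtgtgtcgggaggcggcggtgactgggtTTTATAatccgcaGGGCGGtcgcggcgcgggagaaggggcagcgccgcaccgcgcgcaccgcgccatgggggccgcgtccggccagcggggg
Dpp4, chr3:67452373-67452672, minus strand: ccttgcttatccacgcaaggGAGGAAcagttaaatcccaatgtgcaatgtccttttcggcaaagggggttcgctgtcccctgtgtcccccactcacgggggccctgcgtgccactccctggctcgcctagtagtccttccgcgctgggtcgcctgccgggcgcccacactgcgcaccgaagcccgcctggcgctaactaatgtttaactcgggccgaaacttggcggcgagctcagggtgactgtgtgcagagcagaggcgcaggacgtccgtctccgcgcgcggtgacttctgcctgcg
Ece1, chr5:155360781-155361080, plus strand: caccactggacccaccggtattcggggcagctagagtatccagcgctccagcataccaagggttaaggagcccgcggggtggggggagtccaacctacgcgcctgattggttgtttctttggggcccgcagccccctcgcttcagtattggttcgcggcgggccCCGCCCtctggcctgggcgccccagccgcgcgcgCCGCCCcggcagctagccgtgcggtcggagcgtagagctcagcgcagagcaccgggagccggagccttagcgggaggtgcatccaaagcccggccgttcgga

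The windows of Ace, Dpp4 and Ece1 lie at the 5′ edge of the annotated gene, so their last 50 bases belong to the gene. That of Xpnpep2 lies inside the annotated gene, which spans positions 132165696 to 132194937 of chromosome X. None of the 6 motifs was found in the window of Xpnpep2 or in that of Anpep. The Ace window held 2 matches to GAGGAA, at -228 to -223 and -100 to -95 from the start, 4 matches to GGGCGG and 1 match to TATAAA at -42 to -37. Dpp4 had 1 match to GAGGAA at -230 to -225, and Ece1 had 2 matches to GGGCGG. Of the members not printed, Enpep had 1 match to GAGGAA, Mme 3 and Cpm 6 matches to GGGCGG. Among 27457 windows of the same length, 27.5% held GAGGAA, 34.9% GGGCGG, 14.3% TATAAA, 8.68% TTCNNNGAA, 7.33% TGANTCA and 6.65% CACGTG. GC content was 72.3% for Ace, 69.3% for Ece1, 64.0% for Dpp4 and 55.3% for Xpnpep2, against a median of 52.3% over all windows.

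The totals were between 27195157 and 33732981 estimated counts per rat. Levels are given in CPM (counts scaled to the TMM-normalized library size), and 3 counts corresponded to between 0.0887 and 0.109 CPM. Such limits cover counting error alone. Levels are compared between rats for each gene and not between genes, since the counts carry no gene length. Markers of macrophages were present in every rat. Csf1r ranged from 1131 to 1691 CPM and Cd68 from 496 to 864 CPM. Of 8 macrophage markers, 4 were lower and 1 higher in CNT-7 (edgeR adjusted p under 0.10), against 14.0% lower and 13.9% higher among all genes tested. Those lower were Adgre1, Fcgr1a, Csf1r and Cd68, and Cd14 was higher. Adgre1 had the largest difference, with means of 271 CPM with CNT-7 and 592 CPM with CNT-T. The sum of the 8 markers, mostly Lyz2, ranged from 15250 to 22330 CPM with CNT-7 and from 23730 to 33870 CPM with CNT-T. Lyz2 itself averaged 17596 CPM with CNT-7 and 24362 CPM with CNT-T and did not pass (edgeR adjusted p = 0.1002). The part of these marker differences in the members' levels was not tested. Mesothelial markers summed to 0 to 0.402 CPM with CNT-7 and 0 to 0.130 CPM with CNT-T. Fibroblast markers summed to 0.614 to 1.47 CPM with CNT-7 and 0.163 to 0.758 CPM with CNT-T. The part of these cells in the levels of the scarce members was not tested.

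Of the 8 members, 4 had enough counts to be tested across the table, namely Xpnpep2, Anpep, Ece1 and Cpm. Dpp4, Ace, Mme and Enpep were below the filter on low counts. Xpnpep2 and Anpep passed the threshold of an adjusted p-value under 0.10 (edgeR), both higher in CNT-7, and Ece1 and Cpm did not. Over all 12124 genes tested, 27.9% passed in either direction and 13.9% were higher in CNT-7. The median log2 fold change (CNT-7 over CNT-T, here and throughout) was 0.33 for the 4 tested members and 0.0083 over all genes tested. Only Xpnpep2 among the 4 tested members had no overlap between the groups, against 24.9% of all genes tested. Because the members were selected with this contrast known, nothing is read from these counts.

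Xpnpep2 (ENSRNOG00000004009) encodes membrane-bound aminopeptidase P, which removes an amino-terminal residue that precedes proline and thereby inactivates bradykinin. Its level was 11.4, 10.4, 15.0 and 11.15 CPM in CNT-7 rats 3, 5, 10 and 11. In CNT-T rats 1, 2, 12 and 13 it was 0.0978, 0.443, 0.264 and 0.322 CPM, that is, between 3 and 15 counts. Every CNT-7 rat was more than an order of magnitude above every CNT-T rat, and the spread within CNT-7 was small, with rat 10 the highest. Means and SDs (n = 4) were 11.997 ± 2.06 CPM with CNT-7 and 0.282 ± 0.144 CPM with CNT-T. The fitted log2 fold change was 5.38 (standard error 0.31, 95% interval 4.69 to 6.07), or 41.6-fold. With each rat left out in turn it stayed between 5.10 and 5.70. Of 5 dendritic cell markers, Ccr7 (log2 fold change 3.80, adjusted p = 0.011) and Clec9a (1.76, adjusted p = 0.026) were higher in every CNT-7 rat than in any CNT-T rat. Ccr7 met the filter on low counts through the CNT-7 rats, where it was high, so its adjusted p-value is a description. Flt3 and Xcr1, too scarce to be tested, had 22 and 14 counts with CNT-7 against 5 and 2 with CNT-T, and Zbtb46 did not pass. Their sum, mostly Zbtb46, was 5.61 to 11.6 CPM with CNT-7 and 4.37 to 8.38 CPM with CNT-T, and its part in the level of Xpnpep2 was not tested. As with every bulk value here, more cells that express the gene and more RNA per cell cannot be told apart.

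**Figure D1:**
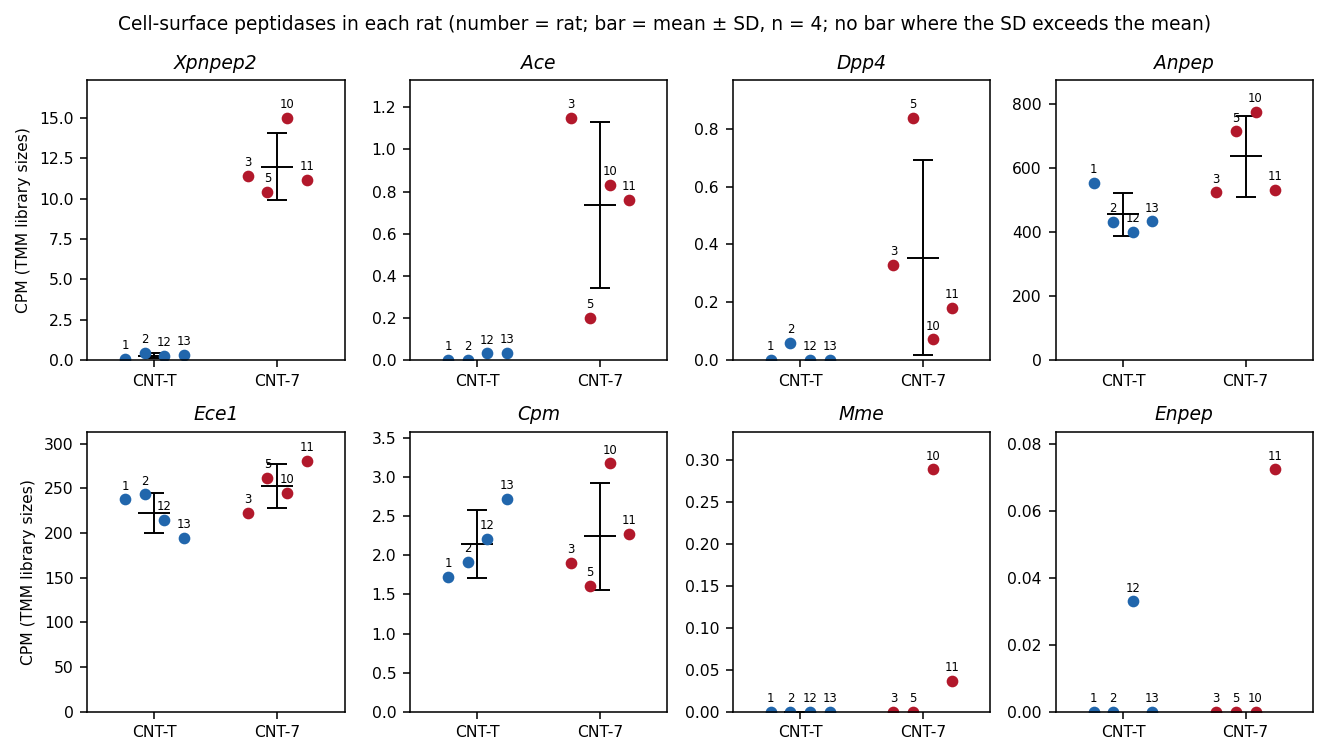
Level of each of the 8 cell-surface peptidases in CPM, 1 point per rat with its number (blue, CNT-T; red, CNT-7), with the mean and SD of 4 rats per group where the SD does not exceed the mean; each panel has its own axis from 0. Xpnpep2 was between 10.4 and 15.0 CPM in the CNT-7 rats, against at most 0.443 CPM in the CNT-T rats, Ace was also higher in all 4 CNT-7 rats than in any CNT-T rat, and Anpep, Ece1 and Cpm overlapped between the groups.

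Ace (ENSRNOG00000062101) encodes angiotensin-converting enzyme, a dipeptidyl carboxypeptidase that makes angiotensin II and also degrades bradykinin. CNT-7 rats 3, 5, 10 and 11 had 35, 6, 23 and 21 counts (1.15, 0.201, 0.831 and 0.760 CPM). CNT-T rats 1 and 2 had 0 counts, and CNT-T rats 12 and 13 had 1 count each. The groups did not overlap, and CNT-7 rat 5 was well below the other 3 CNT-7 rats. Over all rats, 85 counts after CNT-7 stood against 2 after CNT-T, a ratio of 45.1 (exact 95% interval 12.1 to 379, counting error only). The filter asks for a level of about 10 counts in at least 4 rats, which Ace reached in 3. It was called when no filter was applied, with DESeq2, and without CNT-7 rat 5 or any 1 of the 4 CNT-T rats, since 3 rats then satisfy the filter. Ace was chosen with this contrast known and met a filter only through the CNT-7 rats, where it was high. Nothing is therefore read from these calls. The number of members called was 3 without CNT-T rat 1 and 1 without CNT-7 rat 10.

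Endothelial cells are a known source of Ace. Of the 5 endothelial markers measured, Kdr had 1, 4, 2 and 10 counts in CNT-7 rats 3, 5, 10 and 11 and 0 in all 4 CNT-T rats. Emcn had no count in any rat, Vwf was at most 0.235 CPM, and Cdh5 was at 1.12 to 2.61 CPM in the CNT-7 rats against 0.537 to 1.60 CPM in the CNT-T rats. The sum of the 5 was lower after CNT-7 (15.0 to 26.97 CPM) than after CNT-T (32.9 to 47.7 CPM), most of it being Tek. The part of endothelial cells in the level of Ace was not tested. CNT-7 rat 3, with the most Ace, also had 8.74 CPM of the eosinophil marker Ccr3, against at most 0.637 CPM in the other 7 rats. The 4 eosinophil markers summed to 0.181 to 9.33 CPM in the CNT-7 rats against 0.107 to 0.359 CPM in the CNT-T rats, with Epx at 0 in every rat. CNT-7 rats 10 and 11, at 0.217 and 0.181 CPM of these markers, had 0.831 and 0.760 CPM of Ace. The part of eosinophils in the level of CNT-7 rat 3 was not tested.

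Dpp4 (ENSRNOG00000030763) encodes CD26, which removes dipeptides from the amino end of chemokines and incretin hormones and is abundant on activated T cells. CNT-7 rats 3, 5, 10 and 11 had 10, 25, 2 and 5 counts (0.329, 0.838, 0.0722 and 0.181 CPM). After CNT-T, rat 2 had 2 counts (0.0591 CPM) and the other 3 rats had 0. CNT-7 rat 10 was therefore at the level of CNT-T rat 2, both being below the level of 3 counts, while the other 3 CNT-7 rats were above it. The ratio of the summed counts, 42 after CNT-7 against 2 after CNT-T, was 22.3 (exact 95% interval 5.80 to 190, counting error only). Without CNT-7 rat 5 it was 12.2 (interval 2.89 to 109), from 17 against 2 counts.

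CNT-7 rat 5 also had the highest sums of T and of B cell markers. It was likewise the highest of all rats for the sums of dendritic cell (11.6 CPM), fibroblast (1.47 CPM) and mesothelial (0.402 CPM) markers. Its sum of endothelial markers (26.97 CPM) was the highest among the CNT-7 rats, though below every CNT-T rat. Cd3e was 2.11 CPM in this rat, 0.290 to 0.506 CPM in CNT-7 rats 3, 10 and 11 and 0.0358 to 0.231 CPM in the CNT-T rats. The 6 measured T cell markers summed to 4.20 to 11.3 CPM in the CNT-7 rats against 3.75 to 4.14 CPM in the CNT-T rats. None of them was at 0 throughout. Lck made up most of the sum in the CNT-T rats (mean 3.42 CPM) and went the other way. It was 2.56, 4.59, 2.17 and 2.21 CPM in CNT-7 rats 3, 5, 10 and 11. Of these, rats 3, 10 and 11 were below every CNT-T rat. Lck did not pass (log2 fold change -0.25, edgeR adjusted p = 0.55). Cd2, the T cell marker that passed the test, was 1.94, 2.14, 3.43 and 1.38 CPM in the CNT-7 rats, highest in rat 10, against at most 0.297 CPM in the CNT-T rats (log2 fold change 3.48, SE 0.41, edgeR adjusted p = 0.00070). Cd2 met the filter on low counts through the CNT-7 rats, where it was high, so this adjusted p-value is a description. The 5 measured B cell markers had a sum of 0.397 to 2.92 CPM in the CNT-7 rats, with the highest value in rat 5 (though not of Jchain), against 0.237 to 0.593 CPM in the CNT-T rats. The part of any of these cell types in the level of Dpp4 was not tested. Ace and Xpnpep2 had their lowest CNT-7 levels in this rat, as the plot beside Cd3e shows.

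**Figure D2:**
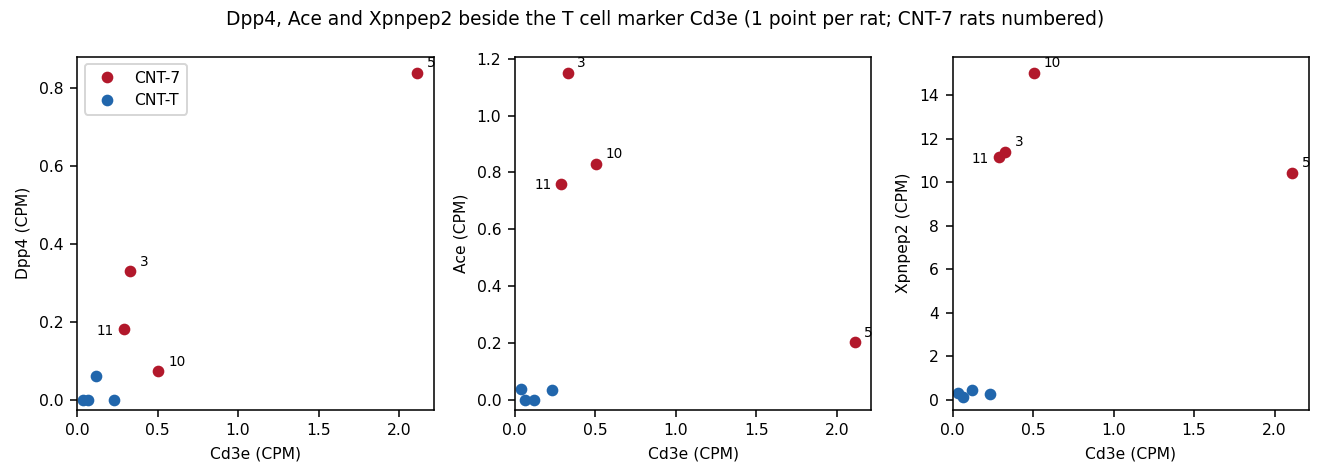
Levels of Dpp4, Ace and Xpnpep2 (vertical axes, CPM) against the T cell marker Cd3e (horizontal axis, CPM), 1 point per rat, with CNT-7 rats in red and numbered and CNT-T rats in blue. CNT-7 rat 5 has the most Cd3e (2.11 CPM) and the most Dpp4 (0.838 CPM), but the least Ace and Xpnpep2 of the CNT-7 rats.

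Mme (ENSRNOG00000009514) encodes neprilysin (CD10), which degrades enkephalins, tachykinins and natriuretic peptides. It had 8 counts in CNT-7 rat 10 (0.289 CPM), 1 count in CNT-7 rat 11, and 0 counts in the other 6 rats. A single rat thus carried nearly all of it. The neutrophil is a known source of Mme. The 8 neutrophil markers, mostly Csf3r, summed to 33.9 to 63.0 CPM in the CNT-7 rats against 26.3 to 68.5 CPM in the CNT-T rats, with Mpo at 0 in every rat. Among the CNT-7 rats this sum, Csf3r (57.0 CPM) and S100a8 (3.25 CPM) were highest in rat 10. The other detected markers were highest elsewhere, S100a9, Elane and Camp in rat 5, Cxcr2 in rat 3 and Ltf in rat 11. The highest sum of all was in CNT-T rat 1, which had no count of Mme. The part of neutrophils in the level of Mme was not tested. Enpep (ENSRNOG00000051854), aminopeptidase A, which removes acidic residues and shortens angiotensin II, had 2 counts in CNT-7 rat 11, 1 count in CNT-T rat 12 and 0 in the other 6 rats. Its level was not distinguishable from 0 at this depth in any rat, and no fold is given.

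Anpep (ENSRNOG00000014610) encodes aminopeptidase N (CD13), a broad-range aminopeptidase of monocytes and macrophages. It was 525, 715, 777 and 534 CPM in CNT-7 rats 3, 5, 10 and 11 and 555, 434, 401 and 434 CPM in CNT-T rats 1, 2, 12 and 13. CNT-7 rats 5 and 10 were above all others, while CNT-7 rats 3 and 11 were below CNT-T rat 1, so that the groups overlapped. The means were 638 ± 128 CPM in the CNT-7 rats against 456 ± 67.9 CPM in the CNT-T rats (SD, n = 4), and the log2 fold change was 0.48 (standard error 0.15, 95% interval 0.14 to 0.83), or 1.40-fold. Anpep no longer passed the threshold without CNT-7 rat 5 (log2 fold change 0.42), CNT-7 rat 10 (0.38), CNT-T rat 2 (0.46), CNT-T rat 12 (0.42) or CNT-T rat 13 (0.46).

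Ece1 (ENSRNOG00000014241) encodes endothelin-converting enzyme, which releases active endothelin from its precursor. Its level was 223, 262, 245 and 281 CPM in CNT-7 rats 3, 5, 10 and 11 and 238, 243, 215 and 194 CPM in CNT-T rats 1, 2, 12 and 13. The groups overlapped. The log2 fold change of 0.18 (standard error 0.098) had a 95% interval of -0.037 to 0.40, with no call under any of the alternatives. Cpm (ENSRNOG00000034134) encodes carboxypeptidase M, which removes carboxy-terminal arginine or lysine, for instance from kinins and anaphylatoxins, and is a marker of monocyte-to-macrophage differentiation. It was 1.91, 1.61, 3.18 and 2.28 CPM in the CNT-7 rats against 1.73, 1.92, 2.21 and 2.72 CPM in the CNT-T rats, in the same order of rats. CNT-7 rat 10 was the highest and CNT-7 rat 5 the lowest of all 8 rats. The log2 fold change was 0.064 (standard error 0.25, 95% interval -0.51 to 0.63), and it was -0.15 without CNT-7 rat 10 and -0.027 without CNT-T rat 1.

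By their pattern over the 8 rats, the genes most like Xpnpep2 included Fcgr2b and Cd83, with Pearson's r of log2 CPM of 0.994 and 0.992. Their log2 fold changes were 1.21 and 2.80, and neither overlapped between the groups. The closest to Anpep were Epc1 (r = 0.988), Saraf (0.979) and Stat3 (0.978), and the closest to Ece1 were Tmem259 (0.974), Rnf208 (0.968) and Zbtb42 (0.966). These are descriptions over 8 rats that share their groups and library depths, drawn from all genes tested.

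The other genes of these pathways were taken from lists written by function. Of 25 other membrane-bound peptidases in the table, 8 had no count in any rat and 6 were tested. None was higher, 1 was lower in CNT-7 (against 14.0% lower among all genes tested), and the median log2 fold change was 0.0038. That gene was St14, which encodes the membrane serine protease matriptase. It was 83.8, 78.7, 51.7 and 108 CPM in CNT-7 rats 3, 5, 10 and 11 and 188, 189, 152 and 137.5 CPM in CNT-T rats 1, 2, 12 and 13, without overlap (log2 fold change -1.05, standard error 0.20, adjusted p = 0.0062). Lnpep, Fap, Dpep2, Dpep3 and Cpd did not pass, with log2 fold changes between -0.58 and 0.33. Cpd passed as well without CNT-7 rat 11 or CNT-T rat 1, and Lnpep without CNT-T rat 13, so that the list then had 2 genes.

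Among the sheddases of the ADAM family, which release surface proteins, and the carriers of Adam17, 8 of 10 genes were tested and 4 were higher in CNT-7 (against 13.9% of all genes tested). The median log2 fold change of the 8 was 0.42. Adam8, a leukocyte ADAM, averaged 46.9 ± 15.1 CPM in CNT-7 rats against 11.1 ± 1.96 CPM in CNT-T rats (SD, n = 4; log2 fold change 2.08, SE 0.23, edgeR adjusted p = 0.00049). Adam19 rose from 64.0 ± 2.33 to 137 ± 22.4 CPM (log2 fold change 1.09, adjusted p = 0.00036 from edgeR). Adam10, the general sheddase, was at 402 to 455 CPM in the CNT-7 rats against 317 to 367 CPM in the CNT-T rats (log2 fold change 0.37, adjusted p = 0.0084). Adam9 had a log2 fold change of 0.46 (adjusted p = 0.088) and was highest in CNT-7 rat 10, at 357 CPM. It lost the threshold without CNT-7 rat 5 (0.50), CNT-7 rat 10 (0.27) or CNT-T rat 1 (0.44), 2 (0.50) or 12 (0.36), and in a fit with a term for low (1 to 5) or high (10 to 13) rat numbers (0.45, adjusted p = 0.106). Adam17, the sheddase of tumour necrosis factor, was 191 ± 15.6 CPM in the CNT-7 rats against 175 ± 18.7 CPM in the CNT-T rats, and did not pass (log2 fold change 0.13, 95% interval -0.087 to 0.34).

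**Figure D3:**
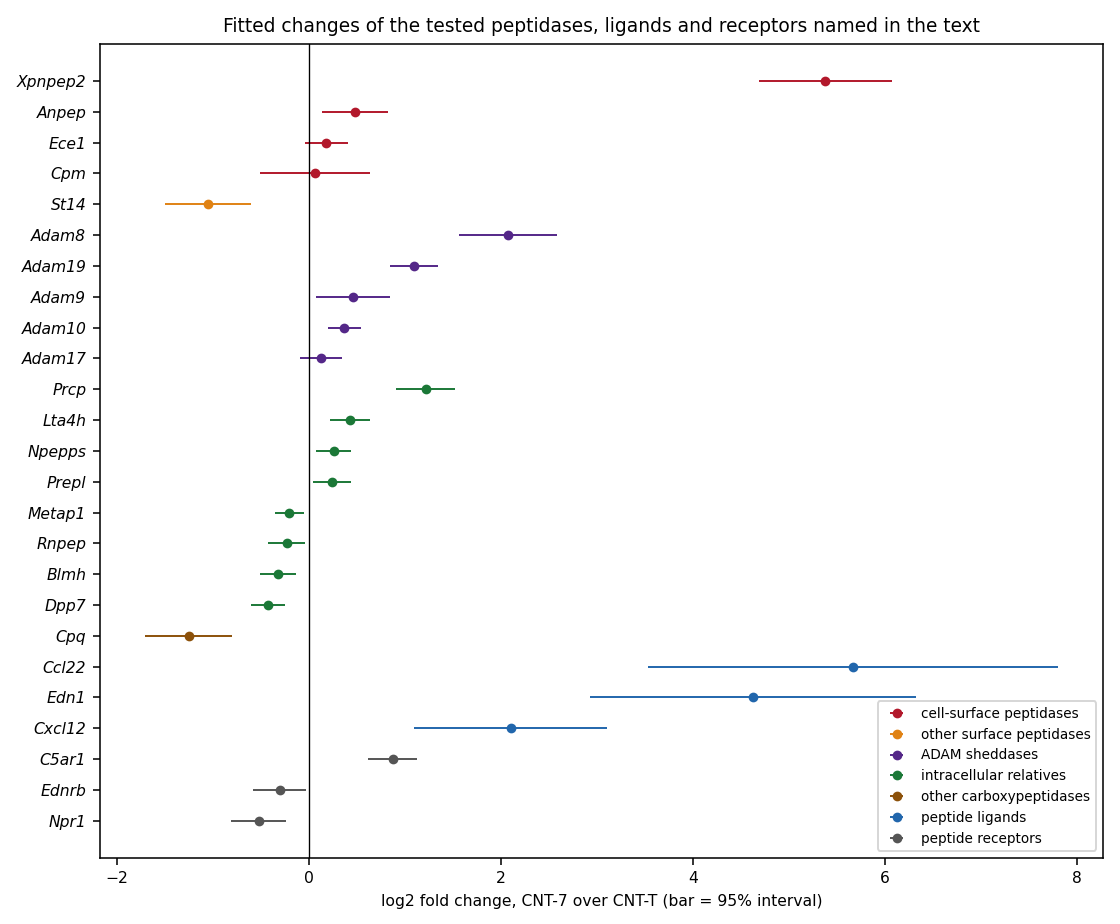
Fitted log2 fold change, CNT-7 over CNT-T (points), with its 95% interval (bars) for each named gene that had enough counts to be fitted, coloured by list. Xpnpep2 lies at 5.38 and the other 3 fitted members lie between 0.064 and 0.48, while Ccl22, Edn1, Cxcl12 and Adam8 lie above 2 and St14 and Cpq below -1.

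All 24 intracellular relatives in the table, soluble or lysosomal peptidases of the same families, were tested. Of these, 5 were higher and 4 lower in CNT-7, against 13.9% higher and 14.0% lower among all genes tested. The median log2 fold change was -0.0046. Prcp, the lysosomal prolylcarboxypeptidase, which also cuts angiotensin II, had the largest change of the list. It was at 349.5 to 527 CPM in the CNT-7 rats against 160 to 207 CPM in the CNT-T rats (log2 fold change 1.22, standard error 0.14, adjusted p = 0.00055). Lta4h, an aminopeptidase that also makes a leukotriene, was 990 ± 90.5 CPM in the CNT-7 rats against 734 ± 60.4 CPM in the CNT-T rats (SD, n = 4; log2 fold change 0.43, adjusted p = 0.010 from edgeR). The changes of Npepps (0.26) and Prepl (0.24) were smaller. Dpp7, a vesicular relative of Dpp4, fell by 0.42 on the log2 scale (adjusted p = 0.0058), from 216 ± 17.6 to 161 ± 10.4 CPM, and Blmh fell by 0.32 (adjusted p = 0.025). Rnpep (-0.23) and Metap1 (-0.20) followed. Dpp8, Dpp9 and Xpnpep1, cytosolic relatives of Dpp4 and Xpnpep2, had log2 fold changes of -0.026, 0.076 and 0.040 and did not pass.

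The number of intracellular relatives called was 4 without CNT-7 rat 3 or 10 and 5 without CNT-7 rat 5 or CNT-T rat 12, against 9 with all rats. Npepps was lost without CNT-7 rat 3 or 10 or CNT-T rat 12 or 13, where its log2 fold change was between 0.21 and 0.26. Prepl passed, among the fits that left out a rat, only without CNT-T rat 13. Rnpep was lost without CNT-7 rats 3, 5 or 10 or CNT-T rats 1, 2 or 12 and with the term for low or high rat numbers, and Metap1 without CNT-7 rats 3, 5 or 10 or CNT-T rat 2. Among 17 other carboxypeptidases 6 were tested and 1 passed, lower in CNT-7 (against 14.0% lower among all genes tested). Cpq, a secreted and lysosomal carboxypeptidase, was 6.37, 7.40, 8.38 and 10.2 CPM in the CNT-7 rats against 13.6, 17.5, 24.8 and 21.0 CPM in the CNT-T rats in the order of rats given above (log2 fold change -1.25, standard error 0.20, adjusted p = 0.0028). The lysosomal carboxypeptidases Ctsa and Scpep1 had log2 fold changes of 0.11 and 0.029 and did not pass.

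Of 20 precursors of peptides and chemokines that these enzymes cut, 11 had no count in any rat, among them Agt and Kng1, which encode angiotensinogen and kininogen. The 4 tested genes included 3 that were higher in CNT-7 (against 13.9% of all genes tested). These 3, Edn1, Ccl22 and Cxcl12, met the filter on low counts through the CNT-7 rats, where they were high. A gene that enters in this way could hardly come out lower, so their number and adjusted p-values are a description. Edn1, the endothelin precursor whose product Ece1 activates, had 44, 43, 10 and 33 counts in CNT-7 rats 3, 5, 10 and 11 and 2, 0, 0 and 3 counts in CNT-T rats 1, 2, 12 and 13. The fit gave a log2 fold change of 4.63 (SE 0.76, adjusted p = 0.0030), and the ratio of summed counts was 27.6 (exact 95% interval 11.5 to 86.5, counting error only). Without CNT-T rat 13 the log2 fold change was 5.46, in a range of 4.20 to 5.46 with each rat left out. Ccl22, a chemokine that Dpp4 truncates, was 12.9, 8.61, 7.73 and 0.941 CPM in the CNT-7 rats, against at most 0.325 CPM in the CNT-T rats (log2 fold change 5.67, standard error 0.95, adjusted p = 0.0033). CNT-7 rat 11 was far below the other 3. Without CNT-T rat 2 the log2 fold change was 6.51, in a range of 5.27 to 6.51 with each rat left out. Cxcl12, also a substrate of Dpp4, rose from 0.51 ± 0.34 to 2.23 ± 0.59 CPM (SD, n = 4; log2 fold change 2.10, adjusted p = 0.0097 from edgeR). Cxcl10 was at 1.08 to 26.75 CPM in the CNT-7 rats against 12.2 to 20.7 CPM in the CNT-T rats and did not pass, but it was called without CNT-7 rat 11.

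Of 24 receptors for these peptides, 10 had no count in any rat. They included the angiotensin receptor Agtr1a and the bradykinin receptors Bdkrb1 and Bdkrb2, whose RNA was thus not detected at this depth. Of the 9 tested, C5ar1 was higher and Npr1 lower in CNT-7 (against 27.9% of all genes tested that passed in either direction). C5ar1, the receptor of the anaphylatoxin C5a, which Cpm shortens, was at 564 to 770 CPM in the CNT-7 rats against 334.5 to 393 CPM in the CNT-T rats (log2 fold change 0.88, standard error 0.11, adjusted p = 0.0010). Npr1, the natriuretic peptide receptor with guanylyl cyclase activity, was 97.1 ± 15.4 CPM in the CNT-7 rats against 140 ± 17.3 CPM in the CNT-T rats (SD, n = 4; log2 fold change -0.52, adjusted p = 0.016 from edgeR). Ednrb, an endothelin receptor, was at 250 to 307 CPM in the CNT-7 rats against 255 to 366 CPM in the CNT-T rats, with a log2 fold change of -0.30 (95% interval -0.58 to -0.025, adjusted p = 0.12). It passed with DESeq2 (-0.31, adjusted p = 0.076) and without CNT-7 rat 5 (-0.38) or CNT-T rat 1 (-0.41). The other endothelin receptor, Ednra, had between 2 and 12 counts per rat and was not tested. Without CNT-T rat 1, 4 receptors passed in place of 2.

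**Figure D4:**
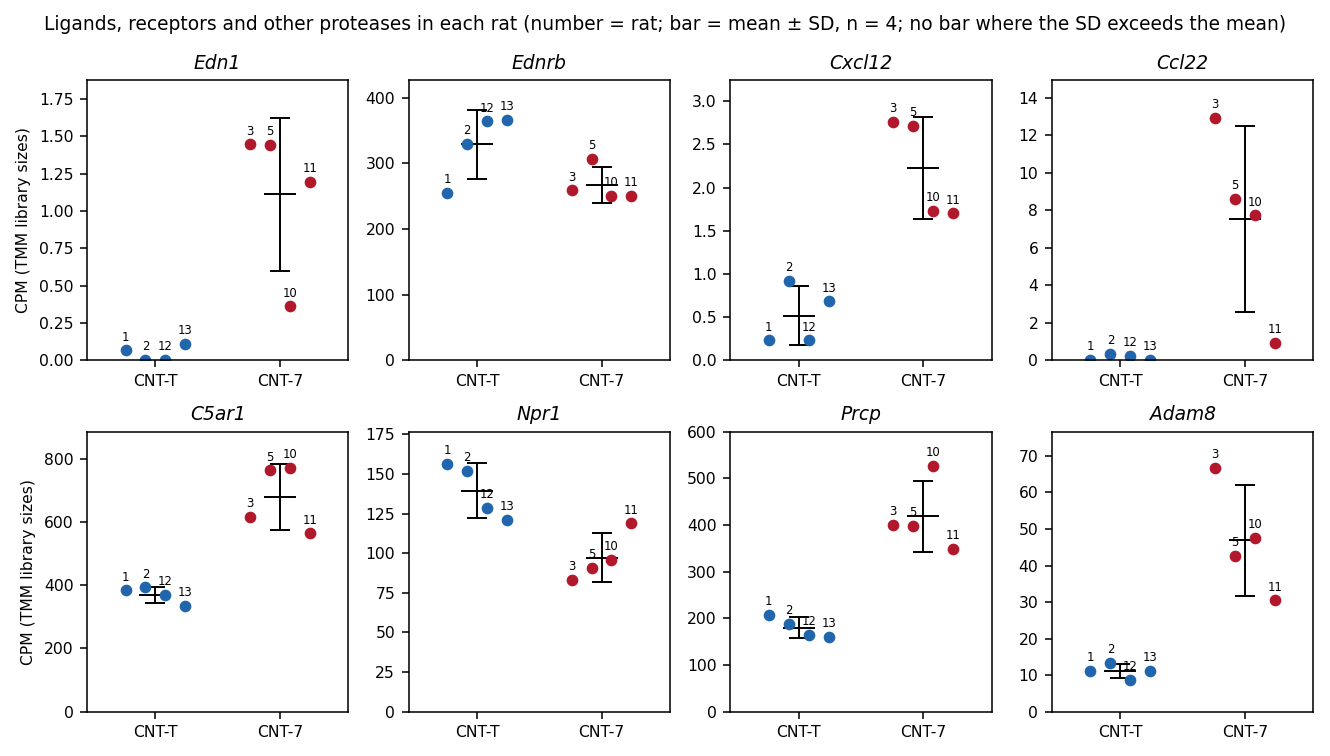
Levels in CPM of ligands (Edn1, Cxcl12, Ccl22), receptors (Ednrb, C5ar1, Npr1) and the proteases Prcp and Adam8, 1 point per rat with its number (blue, CNT-T; red, CNT-7) and the mean and SD of 4 rats per group where the SD does not exceed the mean, each panel with its own axis from 0. Edn1, Cxcl12, Ccl22, C5ar1, Prcp and Adam8 were higher in all 4 CNT-7 rats than in any CNT-T rat, Npr1 was lower in all 4, and Ednrb overlapped.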

How the data were processed

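The authors ran the ARMOR workflow, in which FastQC served as read check, Salmon (version not given in the sources used here) assigned reads to Ensembl rat cDNA of Rnor_6.0, and tximeta imported the estimates. The deposited values are estimated counts per gene for each of 8 rats, not normalized and already whole, so that rounding changed nothing. Genes were tested with the quasi-likelihood test of edgeR 4.0.16 (R 4.3.3) on all 8 rats, with TMM, the default filter (minimum count 10, minimum total 15), Benjamini-Hochberg adjustment over all 12124 genes and a threshold of 0.10, as in the study. Standard errors are the log2 fold change over the square root of F, and log2 CPM used a prior count of 2. Pairs of rats of 1 group had r between 0.971 and 0.986 across genes. DESeq2 1.42.0 was an alternative. Members and lists were chosen with earlier results of these data known. All 8 members are named, together with the 4 largest rises and falls that passed in each other list and 9 direct partners. Some genes that this rule names are not reported here. Other genes were named after their values were seen. On simulated counts for this comparison with 12211 genes, 84 of 100 changes of 2-fold and 95 of 100 of 4-fold were recovered, and 12.3% of calls were false. The simulation changed 200 genes, whereas 3383 passed in the data. All 200 were set at higher counts than Ace, Dpp4, Mme and Enpep had. These shares therefore do not carry over to such scarce genes or to the share of false calls in the data.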

Additional observations from a re-analysis of the deposited data

Results flagged for a closer look

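In 6 of 55 groups of 4 rats examined among the named genes, the gap between 1 rat and its nearest neighbour was large for the range of the group (above the 95% critical ratio for 4 values). Chance at 5% gives about 2.75 such groups, and no cause was tested. Among the members, Mme stood out in CNT-7 rat 10 (ratio 0.875), at 0.289 CPM against at most 0.0362 CPM in the other CNT-7 rats. This rat also had 357 CPM of Adam9 where the other CNT-7 rats had 221 to 238 CPM (ratio 0.877). Among the CNT-7 rats, both endothelin receptors were highest in rat 5. Ednrb was at 307 CPM against 250 to 259 CPM (ratio 0.842) and Ednra at 0.335 CPM against 0.0657 to 0.109 CPM (ratio 0.841). In CNT-T, Dpp7 was highest in rat 1 (ratio 0.900), at 242 CPM against 205 to 209 CPM, and Blmh was lowest in rat 12 (ratio 0.910), at 86.8 CPM against 94.8 to 95.6 CPM.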

How the results depend on the processing

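No paired analysis was possible because the CNT-7 and CNT-T rats share no number in the labels. Xpnpep2 passed in every setting that gave a value, and was not fitted when at least 10 counts were required in every rat. It met the filter through the CNT-7 rats, where it was high, so nothing is read from these calls. Of 8 members, 2 were called, against 4 with DESeq2 and 4 with no filter on low counts (Ace and Dpp4 in addition), and 1 each with at least 10 counts in every rat, at an adjusted p under 0.05 and with at least a 2-fold change. With 1 rat left out the number was 1 to 3. The log2 fold change of Cpm, which did not pass in any setting, was reversed without CNT-7 rat 10 (-0.15) and without CNT-T rat 1 (-0.027), in a range of -0.15 to 0.20 with a rat left out.

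Other membrane-bound peptidases gave 3 calls with DESeq2 and 3 with no filter against 1, and 1 to 2 with a rat left out. The ADAM list gave 2 with a 2-fold change against 4, and 3 to 4 with a rat left out. Intracellular relatives gave 5 at 0.05, 1 with a 2-fold change and 4 to 8 with a rat left out, against 9. Other carboxypeptidases gave 2 with DESeq2 and 3 with no filter against 1. Ligands gave 0 with at least 10 counts in every rat against 3, because none of the 3 was then tested, and 3 to 4 with a rat left out. Receptors gave 0 with a 2-fold change against 2, and 2 to 4 with a rat left out. Upper-quartile scaling changed none of these counts. With a term for low or high rat numbers, the ADAM list gave 3 calls (Adam9 lost) and the intracellular relatives 8 (Rnpep lost), and DESeq2 gave 3 receptors (Ednrb in addition). At a few counts per rat the depth leaves wide intervals for Ace and Dpp4, and no ratio is given for Mme and Enpep. The ratio of Dpp4 without CNT-7 rat 5 was chosen after seeing the data.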

Other observations

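Some relatives of the members were too scarce for the filter and are given by counts, having been chosen after their values were seen. Cpe, which encodes carboxypeptidase E, an enzyme of prohormone processing, had 5, 14, 7 and 22 counts in CNT-7 rats 3, 5, 10 and 11 and 0 counts in all 4 CNT-T rats. With 3 counts per library in place of the CNT-T level, the mean of the CNT-7 rats was at least 4.28-fold higher. The gamma-glutamyltransferase genes Ggt1 and Ggt7 had 4 to 8 and 2 to 6 counts after CNT-7 and 1 to 2 and 0 to 1 counts after CNT-T. Other scarce genes of the same lists went the other way. Among them, Tmprss2 had 17 counts in all after CNT-7 against 35 after CNT-T, Cpxm1 12 against 30 and Naaladl1 10 against 18. No common direction of the scarce genes is read from these counts. Of the 4 CNT-7 rats, rat 10 had the highest level of 4 of the 8 members, Xpnpep2, Anpep, Cpm and Mme.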
